A study of Bos taurus with 30 samples.

Results

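The comparison set out here is the stage difference of the 24 h response: how the change in luteal RNA 24 h after prostaglandin F2α on day 11 of the bovine estrous cycle differed from the same change on day 4. For each probe set it was the log2 change between 24 h and 0 h on day 11 minus the log2 change between 24 h and 0 h on day 4, so that a positive value means a greater rise or a smaller fall on day 11. It used 20 of the 30 arrays of the series, and all 24016 probe sets other than the 112 Affymetrix control probe sets. The other 10 arrays, taken at 4 h, entered the shared estimate of spread and the values given side by side for the earlier time.

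Corpora lutea came from Angus crossbred heifers, 1 gland and 1 Affymetrix GeneChip Bovine Genome Array for each heifer. The 4 groups had 5 arrays each: day 11 collected 24 h after prostaglandin F2α, day 11 at 0 h after saline, day 4 collected 24 h after prostaglandin F2α, and day 4 at 0 h after saline. No saline group at 24 h was among the arrays, so the effect of the hormone and that of 24 h of elapsed cycle cannot be told apart on either day. The ages of the heifers and the dose are not given in the sources used here, and the number of arrays limits the precision of every value.

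The corpus luteum forms from the ovulated follicle and secretes progesterone, which luteal cells make from cholesterol under the drive of luteinizing hormone. Prostaglandin F2α from the uterus acts on its receptor on luteal cells and ends the life of the mature gland: progesterone synthesis stops first, and immune cells, matrix breakdown and cell death follow. The young bovine gland carries the receptor and responds to the hormone, yet it is known to survive it.

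Array medians lay between 6.01 and 6.16 on the log2 scale, which is the scale of every signal given here. All 10 markers of luteal steroidogenic cells were above the 30th percentile of all probe sets, under which a mean is called dim here. On the first principal component, with 36.5% of the variance, the day 11 arrays lay from -53.5 to -45.2 at 24 h and from -24.1 to -5.57 at 0 h. Day 4 arrays lay from -4.35 to 45.7 at 24 h and from 42.1 to 50.7 at 0 h. The day 4 24 h group was thus the widest of the 4: its replicate 1 (45.7) stood among the day 4 0 h arrays and its replicate 4 (-4.35) nearest to day 11.

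The response at 24 h differed between the days for 5342 probe sets, 22.2% of those tested, and the difference came mostly from the day 11 gland. The stage difference was positive for 2538 and negative for 2804 of them. Among 9162 genes, each read from its brightest probe set, it was positive for 1354 (14.8%) and negative for 1377 (15.0%), with a median over all genes of 0.01. On day 11 the change from 0 h to 24 h passed the test upward for 1643 genes (17.9%) and downward for 1827 (19.9%). Day 4 gave 277 genes higher (3.02%) and 433 lower (4.73%) at 24 h. A probe set or gene was called at a Benjamini-Hochberg adjusted p under 0.05 from a limma fit to all arrays.

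Of the 5342 probe sets, 4090 (76.6%) had a change called on day 11 alone. Day 4 alone carried 378 (7.08%), of which 274 were positive and 104 negative. Both days changed in opposite directions for 341 (6.38%). Both changed in the same direction for 21 with the larger change on day 11 and for 1 with the larger change on day 4. For 511 (9.57%) neither single-day change was called although their difference was. The absolute change was larger on day 11 for 4471 and on day 4 for 871. These classes set 2 thresholds side by side and are a description, since a change called on 1 day and not on the other is not shown to be absent there. The day 4 counts were the least stable: without day 4 24 h replicate 4, day 4 alone carried 115 probe sets, and without replicate 1 it carried 687.

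**Figure D1:**
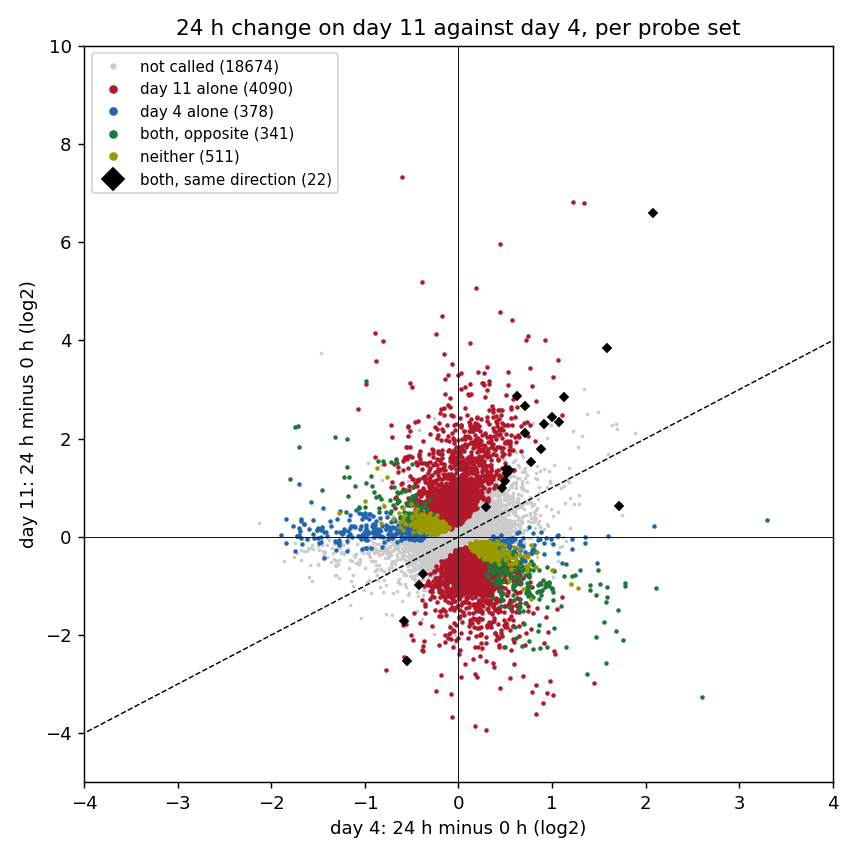
Change from 0 h to 24 h on day 11 (vertical axis, log2) against that on day 4 (horizontal axis, log2) for each of 24016 probe sets, with the 5342 called for the stage difference in colour by the day that carried the change. The 4090 points of the day 11 class spread up and down the vertical axis, the 378 of the day 4 class lie along the horizontal axis, and the dashed line marks equal change on both days.

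Genes of steroid synthesis fell more often than they rose on day 11, the receptor for luteinizing hormone fell with them, and few were called on day 4. Of 20 measured genes of steroid synthesis, 12 had a negative stage difference and 1 a positive one, with a list median of -0.60. On day 11 10 of the 20 were lower and 4 higher at 24 h (19.9% and 17.9% of all genes). On day 4 2 were higher and 0 lower (3.02% and 4.73% of all genes). The 2 day 4 rises became 1 without day 4 24 h replicate 4 or day 4 0 h replicate 1, and 1 gene was called lower on day 4 without replicate 5 of either group. The 4 day 11 rises became 2 without day 11 24 h replicate 4 or day 11 0 h replicate 5. Of 17 luteotropic receptors and their signalling partners, 6 were negative and 2 positive (15.0% and 14.8% of all genes).

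LHCGR (Entrez Gene 281900), the receptor through which luteinizing hormone sustains the gland, had one of the 12 largest negative stage differences among named genes. Its log2 signals on day 11 were 5.02, 5.62, 5.62, 6.29 and 5.82 at 24 h, against 7.48, 7.69, 7.62, 8.92 and 7.88 at 0 h. On day 4 they were 7.51, 7.93, 8.10, 7.62 and 8.08 at 24 h, against 5.75, 7.56, 6.76, 6.51 and 6.93 at 0 h. Every day 11 array at 24 h lay below every one at 0 h, while on day 4 replicate 2 at 0 h lay just above replicate 1 at 24 h. The change was -2.24 on day 11 (adjusted p = 4.5e-07) and 1.15 on day 4 (adjusted p = 0.016), a stage difference of -3.39 ± 0.41 (SE; adjusted p = 4.0e-07). The day 4 rise was no longer called without day 4 24 h replicate 2 or without day 4 0 h replicate 1, with a highest adjusted p of 0.067. The stage difference was called in all 29 refits tried for named genes. A further probe set of LHCGR gave -4.42 (adjusted p = 4.6e-06), and the dimmest of its 3 gave 0.01 (adjusted p = 0.98).

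HSD3B1 (Entrez Gene 281824), the enzyme that turns pregnenolone into progesterone, read 10.06, 11.92, 11.64, 11.63 and 11.71 on day 11 at 24 h, against 13.81, 13.67, 13.66, 13.66 and 13.75 at 0 h. Day 4 signals were 13.64, 13.59, 13.52, 13.56 and 13.58 at 24 h, against 13.56, 13.45, 13.56, 13.59 and 13.65 at 0 h. The day 11 24 h arrays were the only ones below 13, and their replicate 1 was the lowest. This gave a stage difference of -2.33 ± 0.27 (SE; adjusted p = 2.4e-07), with a day 4 change of 0.01 (adjusted p = 0.99).

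STAR (Entrez Gene 281507), which carries cholesterol into the mitochondrion, read 10.71, 12.53, 12.33, 12.35 and 12.82 on day 11 at 24 h, against 13.74, 13.48, 13.54, 13.60 and 13.66 at 0 h. Its day 4 signals were 12.79, 13.17, 13.22, 13.21 and 13.06 at 24 h, against 13.00, 13.00, 12.81, 12.75 and 12.80 at 0 h. Day 11 values at 24 h lay wholly below those at 0 h, again with replicate 1 lowest, and on day 4 replicate 1 at 24 h fell inside the 0 h range. The resulting stage difference was -1.68 ± 0.30 (SE; adjusted p = 1.2e-04). CYP11A1, the enzyme that cleaves the cholesterol side chain, had a smaller one of -0.88 ± 0.10 (SE; adjusted p = 1.7e-07), from a day 11 change of -0.72.

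Steroid genes that act beyond progesterone split by day. CYP19A1 (Entrez Gene 281740), aromatase, read 3.94, 4.48, 4.44, 4.65 and 3.65 on day 11 at 24 h, against 6.53, 6.86, 7.62, 7.02 and 7.12 at 0 h, and its day 4 change was 0.18 (adjusted p = 0.75). Its day 11 arrays at 24 h were all below those at 0 h, and their mean of 4.23 was dim, so the size of the stage difference, -2.98 ± 0.27 (SE; adjusted p = 7.3e-09), is uncertain. Its other 3 probe sets, all dim, were not called.

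CYP17A1 (Entrez Gene 281739), the enzyme that commits steroids to androgens, was carried by day 4 alone. It read 7.78, 7.13, 6.48, 6.19 and 5.97 on day 11 at 24 h, against 6.26, 7.33, 5.97, 6.43 and 5.83 at 0 h. The day 4 arrays gave 8.74, 9.0, 9.46, 9.12 and 8.54 at 24 h, against 5.18, 7.43, 5.32, 5.25 and 5.17 at 0 h. The 5 day 4 arrays at 24 h were above all other arrays of the 4 groups, and day 4 0 h replicate 2 was the high one at 0 h. Its day 4 change of 3.30 (adjusted p = 2.0e-04) was the largest rise of any probe set on that day, and the stage difference was -2.95 ± 0.61 (SE; adjusted p = 6.3e-04).

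NR5A1, the master regulator of steroidogenic genes, changed by -1.21 on day 11 and by 0.74 on day 4, a stage difference of -1.95 (adjusted p = 1.9e-06), although its day 4 rise was lost without day 4 24 h replicate 4 or day 4 0 h replicate 1. NR5A2, a related receptor of luteal cells, had -1.95 (adjusted p = 5.6e-04), carried by day 11. NR0B1, a corepressor of NR5A1, had -2.35 (adjusted p = 1.8e-07), with its day 11 24 h mean of 4.32 dim. A second NR0B1 probe set gave -0.10 (adjusted p = 0.79), and the mean of both -1.22. The prostaglandin F2α receptor PTGFR fell on day 11 by 0.96, to 10.51 ± 0.30 at 24 h, against 11.47 ± 0.13 at 0 h (SD, n = 5 each). On day 4 PTGFR stood at 11.51 ± 0.29 at 24 h, against 11.45 ± 0.09 at 0 h, and its stage difference was -1.02 (adjusted p = 3.7e-04). Its other 2 probe sets gave -1.80 (adjusted p = 2.2e-04) and -0.33 (adjusted p = 0.53). Protein kinase A catalytic subunit PRKACB, which relays the luteinizing hormone signal, moved oppositely on the days, by -0.68 on day 11 and 0.59 on day 4. The growth hormone receptor GHR had -1.69 (adjusted p = 0.027), and this call was lost when the mean of its 11 probe sets was used, and on leaving out any 1 of 3 arrays.

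OXT, which encodes the oxytocin that luteal cells store, gave no called difference between the days: it stood at 13.57 ± 0.13 on day 11 at 24 h and 13.64 ± 0.10 at 0 h, and at 13.94 ± 0.07 on day 4 at 24 h and 13.95 ± 0.06 at 0 h (SD, n = 5 each). The OXT signals lay near the highest value in the data, 14.35, where a change can be compressed, and this was not tested. Of the 10 luteal markers 8 had a negative stage difference and 0 a positive one. Their summed signal on the log2 scale ranged from 15.29 to 15.64 on day 11 at 24 h and from 16.20 to 16.35 at 0 h, and from 16.12 to 16.19 on day 4 at 24 h and from 15.98 to 16.06 at 0 h. In this whole-tissue RNA, fewer luteal cells and less RNA in each cell cannot be told apart, and the part of the marker signal in the steroid and cholesterol results was not tested.

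**Figure D2:**
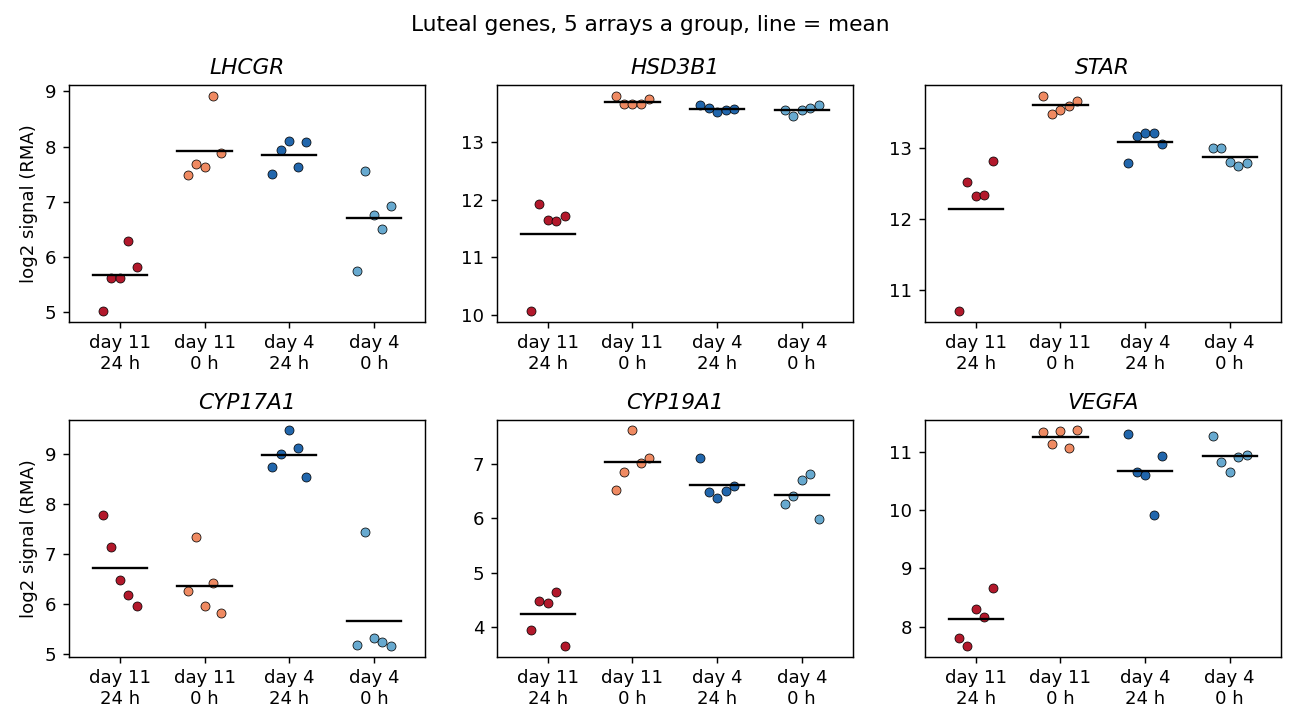
Log2 signal (vertical axes) of 6 luteal genes in each of 5 arrays for the groups, from left: day 11 at 24 h, day 11 at 0 h, day 4 at 24 h and day 4 at 0 h, with a line at the mean. LHCGR, HSD3B1, STAR, CYP19A1 and VEGFA have their lowest mean on day 11 at 24 h, and CYP17A1 its highest on day 4 at 24 h.

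Most genes of cholesterol supply fell on day 11, and 0 were called lower on day 4. Of 25 measured genes of cholesterol synthesis, uptake and efflux, 17 had a negative and 1 a positive stage difference, and the median was -1.26. On day 11 18 were lower and 5 higher at 24 h (19.9% and 17.9% of all genes). On day 4 4 were higher and 0 lower (3.02% and 4.73% of all genes). The 4 day 4 rises became 0 without day 4 24 h replicate 4, 1 without day 4 24 h replicate 2 or day 4 0 h replicate 1, and 2 without replicate 3 of either group. At 0 h, 17 of the 25 stood higher on day 11 than on day 4 (17.9% of all genes did). At 24 h 16 of them stood lower on day 11 (27.3% of all genes did). Leaving out any single array gave 17 negative calls each time.

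INSIG1 (Entrez Gene 511899), a sterol sensor that holds back cholesterol synthesis, read 7.10, 9.22, 8.22, 8.65 and 8.75 on day 11 at 24 h, against 11.51, 9.33, 10.98, 10.04 and 10.21 at 0 h. Its day 4 values were 10.25, 10.40, 9.91, 9.93 and 10.59 at 24 h, against 9.89, 10.02, 9.51, 9.08 and 9.35 at 0 h. The day 11 24 h arrays were all below the day 11 0 h arrays, while the day 4 ranges overlapped. Its stage difference was -2.67 ± 0.49 (SE; adjusted p = 1.4e-04). DHCR7, the enzyme of the last step to cholesterol, had -2.50 ± 0.31 (SE; adjusted p = 7.5e-07), with a day 11 change of -2.09 and a day 4 change of 0.40. Mevalonate kinase, MVK, fell by 2.05 on day 11 and rose by 0.62 on day 4, where the call (adjusted p = 0.029) was lost on leaving out any 1 of 6 arrays.

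Subunits of the mitochondrial respiratory chain fell on day 11. Of 43 measured subunits of oxidative phosphorylation, 38 had a negative stage difference and 0 a positive one. The sizes were modest, with a median of -0.49. On day 11 41 of the 43 were lower at 24 h (19.9% of all genes were). On day 4 0 were called in either direction by limma (5 had an unadjusted p under 0.05), with a median day 4 change of 0.03. All 38 belonged to the day 11 class, and 36 to 40 were called when single arrays were left out. The luteal marker signal fell in the same arrays, and its part in this result was not tested either.

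NDUFS3 (Entrez Gene 287327), a core subunit of complex I, is shown as an example. On day 11 it read 9.42, 9.13, 9.57, 9.51 and 9.44 at 24 h, against 10.39, 10.71, 10.47, 10.38 and 10.51 at 0 h. In day 4 glands it read 11.04, 10.79, 10.75, 10.60 and 10.83 at 24 h, against 10.78, 10.64, 10.81, 10.84 and 10.96 at 0 h. The day 11 arrays at 24 h formed a tight set below all the others, and the day 4 groups lay over each other. Its stage difference was -1.07 ± 0.13 (SE; adjusted p = 3.1e-07), and the other 2 subunits named, NDUFS7 and NDUFS8, had -0.97 and -0.98. The call for NDUFS3 was lost (adjusted p = 0.15) when the mean of its 2 probe sets was used.

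Fatty acid oxidation and the citric acid cycle went the same way, with 19 of 35 measured genes negative and 3 positive. ETFA, which passes electrons from fatty acid oxidation to the respiratory chain, changed by -0.87 on day 11 and 0.42 on day 4, the day 4 call being lost without day 4 24 h replicate 2 or 4. ACADS, the short-chain acyl-CoA dehydrogenase, had a stage difference of -0.93 (adjusted p = 2.0e-06). CPT1B, an isoform of the enzyme that admits fatty acids to mitochondria, was one of the 3 positive ones at 0.87 (adjusted p = 0.038), a call lost in 9 alternatives.

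Genes of fatty acid handling and lipid droplets divided, 7 positive and 11 negative of 26 (14.8% and 15.0% of all genes). FABP4 (Entrez Gene 281759), a fatty acid carrier of fat cells and macrophages, read 8.84, 8.26, 9.90, 8.93 and 7.99 on day 11 at 24 h, against 4.76, 4.62, 5.29, 4.18 and 4.37 at 0 h. On day 4 its means were 3.91 ± 0.23 at 24 h and 4.15 ± 0.27 at 0 h (SD, n = 5 each), both dim. No array of the other 3 of these 4 groups exceeded 5.29, and its stage difference was 4.38 ± 0.45 (SE; adjusted p = 4.8e-08). FABP5, a related carrier, had 2.51 (adjusted p = 5.9e-06). Lipoprotein lipase, LPL, which frees fatty acids from circulating fat, moved oppositely: -1.41 on day 11 and 1.10 on day 4, for a stage difference of -2.50 (adjusted p = 4.2e-06).

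**Figure D3:**
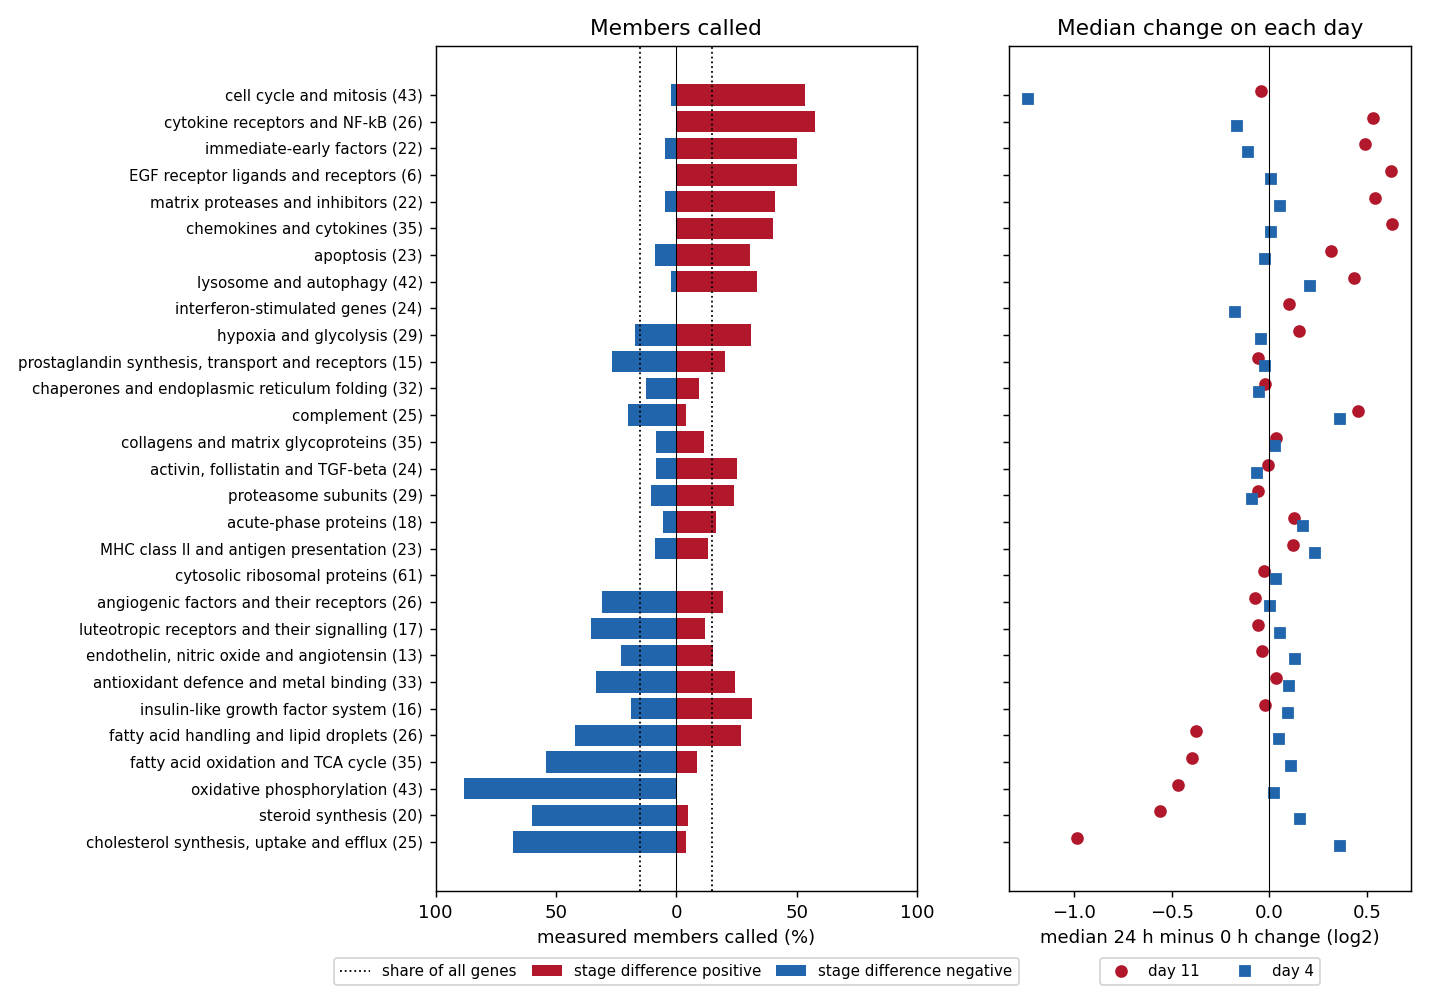
Left, share of the measured members (number in brackets) of each of 29 gene lists called for the stage difference, positive to the right and negative to the left, in percent, with dotted lines at the shares of all genes (14.8% and 15.0%). Right, median change from 0 h to 24 h on the log2 scale on day 11 (circles) and day 4 (squares): the oxidative phosphorylation list has a median of -0.47 on day 11 and 0.03 on day 4, and the cell cycle list -0.04 on day 11 and -1.24 on day 4.

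Chemokines and cytokines rose on day 11 in 17 of 35 cases, and all but 1 of them gave no called change on day 4. Of 35 measured, 14 had a positive stage difference and 0 a negative one, with a median of 0.49. On day 11 0 were lower at 24 h, and on day 4 1 was higher and 0 lower. Over all genes 17.9% were called higher on day 11 and 3.02% on day 4. Receptors and regulators of cytokine and NF-kB signalling were likewise positive in 15 of 26 and negative in 0. Leaving out single arrays gave 11 to 14 chemokines and cytokines and 11 to 15 receptors.

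CCL2 (Entrez Gene 281043), the chemokine that draws monocytes, read 12.52, 12.48, 12.52, 12.84 and 12.45 on day 11 at 24 h, against 9.27, 8.86, 8.91, 9.87 and 8.0 at 0 h. On day 4 it read 7.65, 7.85, 8.12, 8.71 and 8.54 at 24 h, against 8.99, 8.44, 9.58, 8.76 and 9.51 at 0 h. Day 11 arrays at 24 h were all above 12 and every other array of the 4 groups was below 10, while the day 4 groups overlapped. The stage difference was 4.46 ± 0.45 (SE; adjusted p = 3.3e-08). At 4 h CCL2 stood at 11.78 ± 0.64 on day 11 and at 11.29 ± 0.66 on day 4 (SD, n = 5 each), with a 4 h stage difference of 0.57 (adjusted p = 0.71). The 24 h stage difference exceeded that at 4 h by 3.89 (adjusted p = 4.5e-07).

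IL1RN (Entrez Gene 281860), the natural antagonist of interleukin 1, had the same course. It read 9.42, 9.84, 9.45, 9.99 and 9.79 on day 11 at 24 h, against 5.62, 5.46, 5.27, 5.07 and 4.98 at 0 h. Day 4 signals were 7.13, 5.76, 6.04, 6.28 and 5.88 at 24 h, against 5.77, 5.40, 6.78, 5.17 and 5.10 at 0 h. The day 11 24 h arrays were all above 9 and no other array of these groups reached 8. Its 4 h means were 8.68 on day 11 and 8.50 on day 4, and the stage differences were 3.84 ± 0.57 (SE; adjusted p = 1.1e-05) at 24 h and 0.55 (adjusted p = 0.81) at 4 h.

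CXCL8, the neutrophil-attracting interleukin 8, averaged 7.80 ± 0.50 on day 11 at 24 h and 4.51 ± 0.82 at 0 h, and 5.01 ± 0.65 on day 4 at 24 h and 5.11 ± 0.44 at 0 h (SD, n = 5 each). At 4 h it averaged 7.79 ± 1.24 on day 11 and 8.53 ± 1.71 on day 4. Its stage difference was 3.40 ± 0.83 (SE; adjusted p = 0.0029) at 24 h and -0.14 (adjusted p = 0.98) at 4 h. CXCL2, another neutrophil chemokine, had 3.54 ± 1.17 (SE; adjusted p = 0.028) with a day 11 24 h mean of 6.04, was dim in the other 3 of the 4 groups at 0 and 24 h, and its call was lost without day 11 24 h replicate 4 or day 4 0 h replicate 3. SPP1, osteopontin, rose on both days, by 3.85 on day 11 and 1.59 on day 4, although the day 4 rise was lost on leaving out any 1 of 5 arrays.

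SOCS3, which damps cytokine signalling, had a stage difference of 2.51 (adjusted p = 4.9e-05). TLR2, a receptor for microbial lipoproteins, had 1.81 (adjusted p = 8.6e-05), and the interleukin 1 receptor IL1R1 had 1.76 (adjusted p = 4.8e-06). All 3 were carried by day 11, with no called day 4 change. The day 4 24 h and 0 h arrays of SOCS3 and of IL1R1 did not overlap, so a day 4 change is not shown to be absent.

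Markers of myeloid cells moved with the chemokines. Of 11 measured macrophage markers 5 were positive and 0 negative for the stage difference. CD14 (Entrez Gene 281048), a monocyte surface receptor, read 11.04, 10.79, 10.42, 11.59 and 10.83 on day 11 at 24 h, against 8.03, 8.52, 8.40, 8.17 and 8.56 at 0 h. The day 4 arrays gave 7.61, 8.38, 8.50, 8.84 and 8.0 at 24 h, against 7.84, 7.91, 8.37, 7.73 and 7.63 at 0 h. The day 11 24 h arrays stood clear of all others, and the stage difference was 2.23 ± 0.37 (SE; adjusted p = 5.1e-05). The scavenger receptor MSR1 had 2.24 (adjusted p = 2.0e-05) and the myeloid adaptor TYROBP 2.05 (adjusted p = 5.0e-04). Complement C1QA, C1QB and C1QC, also on the macrophage list and looked up after the values were seen, had stage differences between -0.01 and 0.03. The summed macrophage markers ranged from 13.30 to 14.03 on day 11 at 24 h and from 11.65 to 12.49 at 0 h, and from 10.44 to 11.81 on day 4 at 24 h and from 10.61 to 10.79 at 0 h. None of the 11 was dim, and their part in the chemokine result was not tested.

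S100A12 (Entrez Gene 282467), a calcium-binding protein of neutrophils and monocytes, had the second largest stage difference among named genes. On day 11 it read 11.19, 11.36, 10.53, 12.15 and 11.28 at 24 h, against 4.79, 5.81, 5.26, 5.28 and 5.53 at 0 h. Its day 4 values were 6.19, 7.01, 8.19, 8.20 and 5.63 at 24 h, against 6.87, 6.77, 6.87, 6.67 and 5.82 at 0 h. All day 11 arrays at 24 h were above 10 and no other array of the 4 groups exceeded 8.2, and the day 4 24 h group spread on both sides of its 0 h group. This gave a stage difference of 5.52 ± 0.65 (SE; adjusted p = 3.0e-07), and its day 11 change was 62.5-fold. At 4 h it averaged 8.28 ± 0.99 on day 11 and 8.54 ± 0.82 on day 4 (SD, n = 5 each). S100A9 had 1.85 (adjusted p = 0.0019). The neutrophil list as a whole gave 2 positive and 0 negative of 10 (14.8% and 15.0% of all genes), and 6 of the 10, among them the granule enzymes MPO and ELANE, were dim over all arrays. Its summed signal ranged from 11.22 to 12.88 on day 11 at 24 h and from 8.63 to 9.54 at 0 h, and from 9.19 to 10.43 on day 4 at 24 h and from 9.03 to 10.42 at 0 h.

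Of 16 T and NK cell markers 2 were positive, near the 14.8% of all genes, and 0 negative. On day 11 10 of the 16 were called higher at 24 h (17.9% of all genes were), and on day 4 0 were (3.02% of all genes were). The 2 positive ones were NKG7, a granule protein of killer cells, at 1.91 (adjusted p = 3.0e-04), and CD5, a surface protein of T cells, at 0.59 (adjusted p = 0.044). The other probe set of NKG7 gave 0.33 (adjusted p = 0.34), and the mean of both 1.12. The call for CD5 was lost in 16 alternatives, and 7 of the 16 markers were dim. Of 24 interferon-stimulated genes 0 were called in either direction by limma (3 had an unadjusted p under 0.05), while IFIT5 had 0.63 (adjusted p = 0.075) and was called in 3 alternatives.

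**Figure D4:**
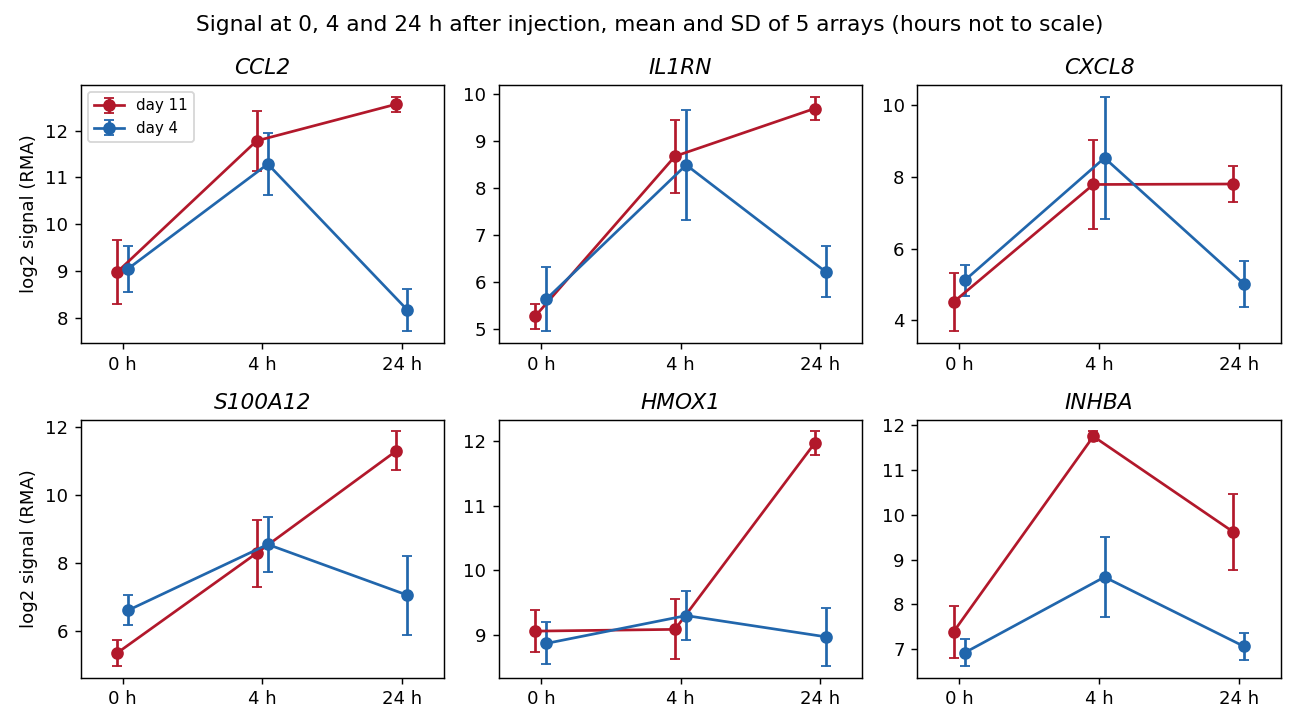
Mean log2 signal with SD over 5 arrays (vertical axes) at 0, 4 and 24 h on day 11 and day 4 for 6 genes. CCL2, IL1RN, CXCL8 and S100A12 have overlapping SDs at 4 h and separate ones at 24 h, HMOX1 is high on day 11 at 24 h (11.96), and INHBA already differs at 4 h (11.76 on day 11, 8.61 on day 4).

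At 4 h 128 genes (1.40%) had a called stage difference, and the 24 h stage difference exceeded the 4 h one for 1141 genes (12.5%) and lay below it for 1063 (11.6%). The 4 h and 24 h comparisons share the 0 h arrays, which cancel in the test between them. Among chemokines and cytokines 9 of 35 were more positive at 24 h than at 4 h and 2 more negative. Of 43 oxidative phosphorylation genes 35 were more negative at 24 h, and of 25 cholesterol genes 17.

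Immediate-early transcription factors, which respond within hours of a stimulus, were mostly positive where called. Of 22 measured 11 were positive and 1 negative at 24 h, and at 4 h 3 were positive. ATF3, a stress-induced repressor, averaged 10.12 ± 0.49 on day 11 at 24 h and 6.77 ± 0.64 at 0 h, against 6.87 ± 0.44 on day 4 at 24 h and 6.34 ± 0.31 at 0 h (SD, n = 5 each). Its stage differences were 2.82 ± 0.43 (SE; adjusted p = 1.3e-05) at 24 h and 1.86 (adjusted p = 0.025) at 4 h. FOS, a subunit of the AP-1 factor, had 2.20 (adjusted p = 0.0063), and IER3, a regulator of cell survival, 2.14 (adjusted p = 1.7e-05). NR4A1, an orphan nuclear receptor of early responses, was not called at -1.11 (adjusted p = 0.29). As single arrays were left out, 10 to 13 were positive and 1 to 4 negative.

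INHBA (Entrez Gene 281867), the activin subunit, differed between the days sooner. Its 4 h stage difference was 2.67 (adjusted p = 0.0029) and its 24 h one 2.10 ± 0.48 (SE; adjusted p = 0.0018), and the 2 did not pass the test against each other (-0.58, adjusted p = 0.49). At 24 h it averaged 9.62 ± 0.85 on day 11 and 7.06 ± 0.29 on day 4, against 7.39 ± 0.58 on day 11 and 6.92 ± 0.30 on day 4 at 0 h (SD, n = 5 each). TGFB1, the founding TGF-beta ligand, had 2.03 (adjusted p = 2.8e-05). ID2, an inhibitor of differentiation factors, went the other way at -1.44 (adjusted p = 1.0e-04), its other probe set giving -0.53 (adjusted p = 0.22). Of 24 genes of this family 6 were positive and 2 negative (14.8% and 15.0% of all genes).

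A pair of EGF family ligands rose on day 11 and gave no called change on day 4. AREG, amphiregulin, averaged 6.67 ± 0.36 on day 11 at 24 h and 3.76 ± 0.34 at 0 h, where it was dim, and 6.90 ± 0.65 on day 4 at 24 h and 7.04 ± 0.91 at 0 h (SD, n = 5 each). Its stage difference was 3.05 ± 0.44 (SE; adjusted p = 6.8e-06), and that of neuregulin NRG1, dim in all groups but day 11 at 24 h and at 4 h, was 2.18 (adjusted p = 7.7e-08). Of the 6 measured genes 3 were positive, the third being the receptor EGFR at 1.08 (adjusted p = 0.0026), also carried by day 11. EGFR was dim in all groups, and day 11 24 h replicate 1 read 5.20 against 4.10 to 4.33 in the others. Its other probe set gave -0.11 (adjusted p = 0.66).

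Matrix proteases and their inhibitors rose on day 11 in 13 of 22 cases and fell in 0 (17.9% and 19.9% of all genes). Of the stage differences 9 were positive and 1 negative (14.8% and 15.0% of all genes). MMP1 (Entrez Gene 281308), interstitial collagenase, read 8.61, 7.06, 6.11, 7.15 and 8.06 on day 11 at 24 h, against 3.52, 3.40, 3.25, 3.38 and 3.69 at 0 h. In day 4 glands it read 3.90, 4.11, 4.09, 4.10 and 3.65 at 24 h, against 3.90, 4.05, 3.88, 3.52 and 3.86 at 0 h. It was dim in the other 3 of these 4 groups, while all 5 day 11 arrays at 24 h exceeded 6, so its stage difference of 3.82 ± 0.54 (SE; adjusted p = 4.5e-06) has an uncertain size. MMP19, another matrix metalloproteinase, had 2.93 ± 0.24 (SE; adjusted p = 1.2e-09) and the urokinase receptor PLAUR 2.79 ± 0.23 (SE; adjusted p = 1.7e-09).

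LOXL4 (Entrez Gene 281904), a collagen cross-linking oxidase, started lower on day 11 and ended higher. It read 11.51, 10.50, 11.77, 10.96 and 10.66 on day 11 at 24 h, against 6.46, 7.17, 7.21, 6.75 and 7.03 at 0 h. On day 4 it read 10.27, 9.14, 9.42, 9.20 and 10.78 at 24 h, against 10.78, 10.74, 11.11, 10.65 and 9.99 at 0 h. Day 11 minus day 4 was 1.32 at 24 h and -3.73 at 0 h, and the day 11 groups did not overlap. The resulting stage difference was 5.04 ± 0.56 (SE; adjusted p = 1.4e-07). Among matrix components, versican VCAN had 1.68 (adjusted p = 1.3e-04) and the elastic fibre protein FBLN5 -1.55 (adjusted p = 4.8e-06). COL13A1, a transmembrane collagen, had one of the largest negative values, -3.52 ± 0.46 (SE; adjusted p = 1.8e-06). Of 35 collagens and matrix glycoproteins 4 were positive and 3 negative, while 14.8% and 15.0% of all genes were, so this list had no excess of calls.

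MT2A, MT1A and HMOX1, which bind metals or break down heme, rose on day 11. MT2A (Entrez Gene 404070), a metallothionein, read 11.40, 12.39, 11.97, 12.04 and 12.35 on day 11 at 24 h, against 8.54, 8.69, 8.86, 9.15 and 9.27 at 0 h. Day 4 signals were 9.76, 11.08, 10.10, 9.11 and 9.93 at 24 h, against 10.13, 10.39, 11.09, 10.55 and 10.42 at 0 h. The day 11 24 h arrays were the highest of the 4 groups and the day 11 0 h arrays mostly the lowest. Its stage difference was 3.65 ± 0.38 (SE; adjusted p = 4.3e-08), and that of MT1A 3.0 (adjusted p = 1.5e-04).

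HMOX1 (Entrez Gene 513221), heme oxygenase, read 11.67, 12, 12.18, 11.98 and 11.98 on day 11 at 24 h, against 8.70, 9.41, 8.75, 9.14 and 9.32 at 0 h. On day 4 it averaged 8.97 ± 0.45 at 24 h and 8.87 ± 0.33 at 0 h. The stage difference was 2.80 ± 0.31 (SE; adjusted p = 1.1e-07), with -0.40 (adjusted p = 0.70) at 4 h. As a list, antioxidant defence was mixed, with 8 positive and 11 negative of 33 (14.8% and 15.0% of all genes).

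PFKFB3, ENO2 and SLC2A5, of sugar use, rose on day 11. PFKFB3, which raises the activator of glycolysis, had 2.56 ± 0.32 (SE; adjusted p = 7.5e-07), and ENO2, an enolase, 2.22 ± 0.27 (SE; adjusted p = 5.5e-07). SLC2A5 (Entrez Gene 282868), the fructose transporter, read 8.84, 8.60, 7.62, 9.58 and 8.82 on day 11 at 24 h, against 3.72, 3.70, 3.49, 3.77 and 3.45 at 0 h. It was dim in the other 3 groups of the comparison, at 3.70 on day 4 at 24 h and 3.52 at 0 h, so the size of its stage difference of 4.89 ± 0.40 (SE; adjusted p = 1.1e-09) is uncertain. DDIT4, an inhibitor of mTOR signalling, fell on day 11 by 1.98 and had -2.22 (adjusted p = 4.0e-05). Of 29 hypoxia and glycolysis genes 9 were positive and 5 negative (14.8% and 15.0% of all genes).

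Lysosomal genes rose on day 11, and a few rose on day 4. Of 42 measured, 28 were higher (17.9% of all genes were) and 0 lower at 24 h on day 11. On day 4 6 were higher (3.02% of all genes were) and 0 lower. The stage difference was positive for 14 and negative for 1 (14.8% and 15.0% of all genes). The cysteine proteases CTSZ and CTSH had 1.59 (adjusted p = 5.9e-05) and 1.53 (adjusted p = 4.3e-05), and legumain LGMN had 1.53 (adjusted p = 1.1e-05). The 6 day 4 rises became 2 without day 4 24 h replicate 4 and 11 without replicate 1. Among 23 apoptosis genes 7 were positive and 2 negative (14.8% and 15.0% of all genes). The death receptor FAS had 1.25 (adjusted p = 2.0e-04) and the mitochondrial factor BNIP3 1.31 (adjusted p = 8.6e-06).

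Genes of the vessels were called in both directions. VEGFA (Entrez Gene 281572), the main endothelial growth factor, read 7.81, 7.67, 8.31, 8.16 and 8.66 on day 11 at 24 h, against 11.35, 11.13, 11.36, 11.07 and 11.37 at 0 h. The day 4 arrays gave 11.31, 10.66, 10.60, 9.91 and 10.93 at 24 h, against 11.27, 10.82, 10.65, 10.92 and 10.95 at 0 h. Day 11 arrays at 24 h were all below 9 and no other array was below 9.9, and the day 4 groups overlapped. This gave a stage difference of -2.89 ± 0.26 (SE; adjusted p = 5.2e-09). The apelin receptor APLNR had -2.24 (adjusted p = 1.1e-05), and thrombospondin THBS2, an inhibitor of vessel growth, 2.32 (adjusted p = 3.3e-09). Of 26 angiogenic factors and receptors 5 were positive and 8 negative (14.8% and 15.0% of all genes). FGF2, a growth factor for endothelial cells, was not called at -1.24 (adjusted p = 0.080).

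Vasoactive genes were mixed too. EDN1, endothelin 1, a constrictor, had 2.04 (adjusted p = 7.4e-04), AGTR1, an angiotensin receptor, -2.09 (adjusted p = 9.9e-05), and NOS2, a nitric oxide synthase, -1.06 (adjusted p = 3.1e-04), which was lost (adjusted p = 0.27) with the mean of its 4 probe sets. Endothelial markers gave 1 positive and 2 negative of 13 (14.8% and 15.0% of all genes). The negative ones were EMCN at -0.93 (adjusted p = 2.3e-05) and TIE1 at -0.73 (adjusted p = 0.023), the latter lost without day 4 0 h replicate 3. The positive one was PLVAP at 1.26 (adjusted p = 0.033), a call lost in 10 alternatives. The summed signal of the endothelial markers ranged from 12.03 to 12.26 on day 11 at 24 h and from 12.23 to 12.52 at 0 h. On day 4 it ranged from 11.72 to 11.90 at 24 h and from 11.70 to 12 at 0 h. Of 15 genes of prostaglandin synthesis, transport and receptors 3 were positive and 4 negative, with a median of 0.15. Among the negative ones, the inactivating dehydrogenase HPGD had -1.87 (adjusted p = 1.9e-04), with a dim day 11 24 h mean. The other probe set of HPGD gave -0.54 (adjusted p = 0.15). The prostaglandin transporter SLCO2A1 had -1.95 (adjusted p = 2.7e-07), and both genes were lower on day 11 at 24 h. PTGS2, cyclooxygenase 2, was dim at 0 and 24 h on both days and was not called, at -0.28 (adjusted p = 0.77).

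Cell division genes fell on day 4, the only list in which most called members were of the day 4 class. Of 43 measured, 23 had a positive stage difference and 1 a negative one, with a median of 1.08. On day 4 35 were lower at 24 h (4.73% of all genes were) and 0 higher. On day 11 3 were higher (6 without day 11 0 h replicate 2) and 2 lower. Day 4 alone carried 20 of the 24. At 0 h 39 of the 43 stood lower on day 11 than on day 4 (26.5% of all genes did), and 31 did so at 24 h.

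CDK1 (Entrez Gene 281061), the kinase that drives entry into mitosis, read 8.56, 8.57, 8.49, 8.71 and 8.65 on day 11 at 24 h, against 7.42, 9.02, 7.09, 6.88 and 7.20 at 0 h. Its day 4 values were 10.29, 8.40, 9.0, 6.39 and 9.40 at 24 h, against 10.37, 10.24, 10.67, 10.47 and 10.28 at 0 h. The day 4 0 h arrays were uniformly high, and at 24 h replicate 1 stayed among them while replicate 4 was the lowest of all 20 arrays. On day 11 0 h replicate 2 stood apart above the others. The resulting stage difference was 2.78 ± 0.59 (SE; adjusted p = 7.4e-04), from a day 4 change of -1.71 (adjusted p = 0.014) and a day 11 change of 1.08 (adjusted p = 0.051).

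CCNB1 (Entrez Gene 327679), the cyclin partner of CDK1, read 6.13, 6.15, 6.20, 6.89 and 6.21 on day 11 at 24 h, against 5.88, 7.43, 5.62, 5.40 and 5.46 at 0 h. In day 4 glands it read 9.78, 7.16, 7.85, 5.65 and 8.79 at 24 h, against 9.57, 9.58, 9.95, 9.86 and 9.48 at 0 h. The order of the day 4 24 h arrays matched that of CDK1, from replicate 1 at the top to replicate 4 at the bottom. Its stage difference was 2.20 ± 0.64 (SE; adjusted p = 0.012). UBE2C, which tags mitotic proteins for destruction, had 2.05 (adjusted p = 0.011), BIRC5, survivin, 1.61 (adjusted p = 0.018), and MCM7, a replication helicase subunit that changed oppositely on the days, 2.13 (adjusted p = 1.1e-05).

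The calls for these day 4 falls depended on single arrays. Without day 4 24 h replicate 2 the 35 lower genes became 12, and without replicate 4 they became 11. Without replicates 1 and 4 together they were 34. Over all probe sets the 1240 day 4 calls became 497 without replicate 2 and 357 without replicate 4. As single arrays were left out, the day 4 change stayed between -2.11 and -1.13 for CDK1 and between -2.33 and -1.29 for CCNB1. The positive stage differences of the list ranged from 17 to 36 as single arrays were left out. CDK1, CCNB1, UBE2C and BIRC5 kept a called stage difference as each array was left out, although CCNB1, UBE2C and BIRC5 did not reach an adjusted p under 0.01, while the calls for their day 4 falls were lost without replicate 2 or replicate 4 of day 4 at 24 h.

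**Figure D5:**
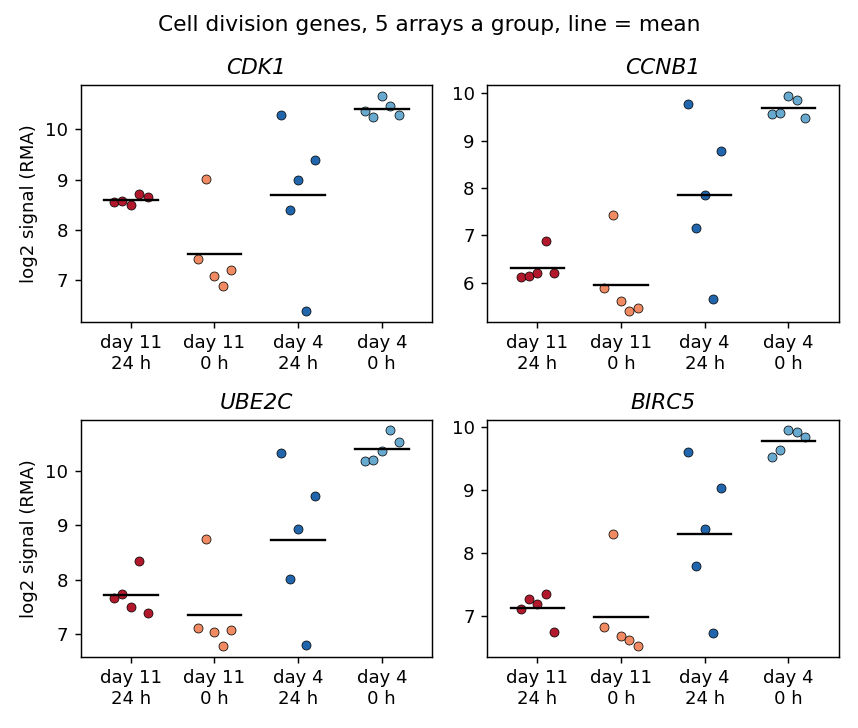
Log2 signal (vertical axes) of 4 cell division genes in each of 5 arrays for the groups, from left: day 11 at 24 h, day 11 at 0 h, day 4 at 24 h and day 4 at 0 h, with a line at the mean. The day 4 24 h arrays span the widest range, for CDK1 from 6.39 in replicate 4 to 10.29 in replicate 1, and day 11 0 h replicate 2 stands above its group.

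Other genes of the day 4 class were fewer. CDH8, a cadherin, rose on day 4 by 2.09 to 6.85 ± 0.19 at 24 h, against 4.76 ± 0.92 at 0 h (SD, n = 5 each), and was dim on day 11, with a stage difference of -1.88 (adjusted p = 0.0058). HAL, histidine ammonia-lyase, rose on day 4 by 1.78 and was dim in the other groups, for -2.78 (adjusted p = 7.2e-04), a day 4 call lost without day 4 24 h replicate 2 or 4. Complement C4A had -1.08 (adjusted p = 0.0090), from a day 4 change of 0.81 that was lost on leaving out any 1 of 4 arrays.

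In the class that moved in opposite directions, PTX3 (Entrez Gene 541148), a soluble pattern-recognition protein, had one of the largest positive values. On day 11 it read 8.26, 8.35, 8.11, 8.39 and 8.93 at 24 h, against 6.28, 7.22, 6.35, 4.44 and 6.59 at 0 h. On day 4 it read 7.90, 6.57, 7.25, 7.36 and 7.45 at 24 h, against 9.86, 8.05, 9.55, 9.31 and 8.48 at 0 h. The 24 h and 0 h arrays did not overlap on either day, and they crossed: day 11 was the higher at 24 h and day 4 the higher at 0 h. The stage difference was 3.97 ± 0.53 (SE; adjusted p = 2.0e-06).

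ABHD6 (Entrez Gene 505283), a monoacylglycerol lipase, moved the other way. It read 8.60, 9.68, 8.75, 8.91 and 9.79 on day 11 at 24 h, against 11.56, 10.62, 11.55, 11.31 and 10.96 at 0 h. Day 4 signals were 9.32, 10.06, 10.45, 10.34 and 9.80 at 24 h, against 8.62, 9.03, 8.37, 8.28 and 8.31 at 0 h. The 24 h arrays lay wholly below the 0 h arrays on day 11 and wholly above them on day 4, and the stage difference was -3.52 ± 0.34 (SE; adjusted p = 1.9e-08). The troponin TNNT1, known from slow skeletal muscle, had -4.14 ± 0.55 (SE; adjusted p = 2.3e-06), with a day 4 rise of 1.58 lost without day 4 24 h replicate 2 or 4. The epithelial cadherin CDH1 had 2.62 (adjusted p = 1.9e-06) and the immunoproteasome subunit PSMB9 -1.97 (adjusted p = 1.4e-06), with opposite changes on the days.

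Few genes moved in the same direction on both days. GAL (Entrez Gene 280799), the neuropeptide galanin, rose on both days. It read 11.10, 10.79, 10.28, 10.30 and 10.31 on day 11 at 24 h, against 3.98, 3.68, 3.51, 4.61 and 4.06 at 0 h. The day 4 arrays gave 6.11, 7.51, 6.92, 8.51 and 6.56 at 24 h, against 5.48, 4.71, 4.82, 5.22 and 4.99 at 0 h. The groups did not overlap on either day, and the change was 96.3-fold on day 11 and 4.22-fold on day 4, for a stage difference of 4.51 ± 0.49 (SE; adjusted p = 8.6e-08). It was dim on day 11 at 0 h, so the size of its day 11 fold is uncertain. CDH2, the neural cadherin found in luteal cells, rose by 2.43 on day 11 and 1.0 on day 4, where its call was lost without day 4 24 h replicate 4. EIF4EBP1, a brake on translation, fell by 1.71 on day 11 and 0.58 on day 4, a call lost on leaving out any 1 of 4 arrays. ITPKA, an inositol trisphosphate kinase, fell by 2.52 on day 11 and 0.55 on day 4, the day 4 call being lost on leaving out any 1 of 14 arrays.

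The largest positive stage difference of any named gene was that of SERPINA14 (Entrez Gene 286871), the uterine serpin. On day 11 it read 11.94, 11.19, 10.58, 10.29 and 10.62 at 24 h, against 3.65, 4.64, 4.41, 3.58 and 4.26 at 0 h. Its day 4 values were 7.10, 7.31, 6.83, 9.10 and 7.78 at 24 h, against 6.23, 7.50, 7.13, 5.59 and 5.54 at 0 h. It was dim on day 11 at 0 h and above 10 in all arrays at 24 h, while the day 4 groups overlapped. This gave a stage difference of 5.59 ± 0.64 (SE; adjusted p = 2.4e-07) at 24 h and 3.17 (adjusted p = 0.0091) at 4 h, and its second probe set gave 5.45 (adjusted p = 1.4e-06). ANKRD1, a stress-responsive cofactor known from heart muscle, had 3.68 ± 0.67 (SE; adjusted p = 1.4e-04).

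At the other end stood NAP1L5 (Entrez Gene 508508), a nucleosome assembly protein, which read 6.02, 7.20, 6.39, 6.05 and 7.0 on day 11 at 24 h, against 10.83, 10.26, 10.85, 10.01 and 10.35 at 0 h. In day 4 glands it read 9.56, 9.96, 9.23, 9.62 and 9.29 at 24 h, against 9.14, 9.46, 9.54, 9.36 and 8.69 at 0 h. The day 11 24 h arrays were the only ones below 8, and the stage difference was -4.22 ± 0.33 (SE; adjusted p = 5.7e-10). The cardiac troponin TNNI3 had -4.12 ± 0.51 (SE; adjusted p = 6.6e-07) and BCAT2, a mitochondrial enzyme of branched-chain amino acid breakdown, -3.94 ± 0.36 (SE; adjusted p = 6.3e-09). PTPRR, a phosphatase that acts on MAP kinases, had -3.92 ± 0.70 (SE; adjusted p = 1.0e-04).

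PTHLH (Entrez Gene 286767), parathyroid hormone-related protein, read 6.68, 7.76, 8.08, 7.16 and 6.68 on day 11 at 24 h, against 10.61, 10.99, 10.97, 10.91 and 11.21 at 0 h. On day 4 it averaged 10.72 ± 0.45 at 24 h and 10.79 ± 0.38 at 0 h. At 4 h it stood at 9.02 on day 11 and 8.87 on day 4, with a 4 h stage difference of 0.01 (adjusted p = 1.0). At 24 h all 5 day 11 arrays were below 9 and the day 4 arrays above 10, and its stage difference was -3.60 ± 0.34 (SE; adjusted p = 1.1e-08).

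Some groups gave no called difference between the days, and others gave few. Of 61 cytosolic ribosomal protein genes 0 were called in either direction by limma (3 had an unadjusted p under 0.05), and the median was -0.06. Of 7 red blood cell markers 0 were called, and 0 had an unadjusted p under 0.05. The progesterone receptor PGR was dim in all groups, at -0.03 (adjusted p = 0.94). Few were called among chaperones, 3 positive and 4 negative of 32 (14.8% and 15.0% of all genes), with mitochondrial HSPE1 at -1.07 (adjusted p = 5.2e-09). MHC class II and antigen presentation gave 3 and 2 of 23, with CD40, a costimulatory receptor, at 1.48 (adjusted p = 7.5e-08). The other probe set of CD40 gave 0.01 (adjusted p = 0.99), and the mean of both 0.75. For BCAT2, NAP1L5, MMP19 and PFKFB3 the less bright probe sets of the same gene were not called.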

How the data were processed

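RNA of 30 corpora lutea was hybridised to Affymetrix GeneChip Bovine Genome Arrays. The authors deposited log2 signals per probe set, made with RMA per the submitters' processing notes, with the RMA version and the arrays normalized together not given in the sources used here. RMA shrinks the folds of dim and saturated probe sets. No further normalization was applied. limma 3.58.1 in R 4.3.3 fitted 6 group means to all 30 arrays (24 residual degrees of freedom, 28.2 after moderation), with the stage difference as a contrast and Benjamini-Hochberg adjustment over 24016 probe sets. The fit was tested on simulated data.

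GEO's platform annotation, which can be old, gave 1 symbol to 13292 probe sets, several to 86 and none to 10638. Of the single-symbol probe sets 13263 matched RefSeq by Entrez identifier and 0 symbols changed. The brightest probe set stood for each of 9162 genes, of which 2913 had others.

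Named genes were the 12 largest in each direction, the 3 largest per direction in each class of driving day, up to 3 called members of each list, or the 2 of lowest p in lists without a call, and a panel of luteal genes. Genes of unknown function were left out of the description, and so were some others. Among those were SERPINA3-7 at -3.35 (adjusted p = 2.0e-06), ASZ1 at -3.20 (adjusted p = 3.5e-04), HSPA1A at -2.67 (adjusted p = 5.8e-05) and IFI30 at 1.68 (adjusted p = 8.6e-08). The mean of all probe sets gave -1.67 for SERPINA3-7 and ended the call for HSPA1A (adjusted p = 0.13). The members and lists were chosen with earlier results of these data known. Replicate numbers were not treated as pairs, so no block entered the fit. Alternatives were a second quantile normalization, median scaling, weights per array or per group, robust moderation with a variance trend, removal of the dimmest 30%, a replicate block, the 20 arrays alone, an adjusted p under 0.01, a 2-fold minimum, the mean of all probe sets of a gene, and leaving out each array. Removal of the dimmest 30% was applied to the counts of probe sets and not to named genes.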

Additional observations from a re-analysis of the deposited data

Results flagged for a closer look

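The comparison between the days was itself a difference in effect: 5342 probe sets passed its test, with 4090 changed on day 11 alone, 378 on day 4 alone and 341 on both days in opposite directions.

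Single arrays far from the other 4 of their group were sought among the named genes and a few array measures. The measures were the median, the first principal component, control probe ratios and the array weight. The gap to the nearest array over the group's range had to exceed 0.71. This was so for 49 of 592 groups of values, where chance gives about 1 in 20 for independent values. Genes on the same array are not independent, so that share is only a guide. Values are log2 signals.

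Day 11 24 h replicate 1 stood apart for EGFR (5.20, others 4.10 to 4.33), C4A (11.67, others 12.43 to 12.53), STAR (10.71, others 12.33 to 12.82), AGTR1 (5.88, others 6.63 to 6.87), HSD3B1 (10.06, others 11.63 to 11.92) and TNNI3 (5.19, others 6.26 to 6.58). Day 11 24 h replicate 2 stood apart for PSMD11 (10.59, others 10.82 to 10.90) and COL13A1 (5.52, others 4.67 to 4.80). Day 11 24 h replicate 3 stood apart for ITPKA (7.40, others 7.07 to 7.16). Day 11 24 h replicate 4 stood apart for CCL2 (12.84, others 12.45 to 12.52), CCNB1 (6.89, others 6.13 to 6.21), CTSH (11.60, others 10.98 to 11.14), LGMN (12.27, others 11.70 to 11.86) and TNNT1 (5.94, others 5.12 to 5.35).

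Day 11 0 h replicate 2 stood apart for CDK1 (9.02, others 6.88 to 7.42), CCNB1 (7.43, others 5.40 to 5.88), MCM7 (8.71, others 7.86 to 8.10), UBE2C (8.75, others 6.78 to 7.11) and BIRC5 (8.31, others 6.53 to 6.83). Day 11 0 h replicate 3 stood apart for GHR (7.46, others 8.52 to 8.84). Day 11 0 h replicate 4 stood apart for LGMN (10.74, others 10.21 to 10.28), PTGS2 (4.61, others 3.94 to 4.12), LHCGR (8.92, others 7.48 to 7.88) and BCAT2 (10.01, others 10.81 to 11.12). Day 11 0 h replicate 5 stood apart for CXCL8 (5.92, others 3.99 to 4.54), IER3 (10.56, others 8.82 to 9.22) and TIE1 (8.02, others 8.59 to 8.67).

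Day 4 24 h replicate 1 stood apart for RPL32 (12.78, others 12.90 to 12.95) and CYP19A1 (7.12, others 6.37 to 6.59). Day 4 24 h replicate 2 stood apart for RPSA (12.79, others 12.96 to 12.99) and PTPRR (8.17, others 10.46 to 10.95). Day 4 24 h replicate 3 stood apart for IGFBP5 (9.53, others 10.71 to 11.01), PLA2G7 (8.25, others 7.15 to 7.32) and CDH2 (9.46, others 10.13 to 10.36). Day 4 24 h replicate 4 stood apart for ANKRD1 (7.60, others 5.89 to 6.32), FAS (6.09, others 5.73 to 5.83), EIF4EBP1 (9.54, others 10.13 to 10.32) and CDH8 (7.17, others 6.72 to 6.82).

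Day 4 0 h replicate 1 stood apart for PLVAP (8.57, others 7.85 to 7.95), PSMB9 (9.43, others 10.37 to 10.46) and ASZ1 (6.93, others 4.63 to 5.03). Day 4 0 h replicate 2 stood apart for TYROBP (6.25, others 6.85 to 7.04), ALAS2 (3.29, others 3.58 to 3.67) and CYP17A1 (7.43, others 5.17 to 5.32). Day 4 0 h replicate 3 stood apart for PDGFRA (9.03, others 9.70 to 9.90). Day 4 0 h replicate 4 stood apart for PTPRR (7.98, others 9.27 to 9.70). Day 4 0 h replicate 5 stood apart for S100A12 (5.82, others 6.67 to 6.87), FOS (8.62, others 9.86 to 10.19) and CD40 (8.57, others 9.07 to 9.20).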

How the results depend on the processing

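The 24 h stage difference was called for 5342 probe sets, and leaving out single arrays gave 4755 to 5449. The day 11 change ranged from 6435 to 7184, the day 11 class from 3703 to 4242, and the day 4 change from 357 (without day 4 24 h replicate 4) to 2071 (without replicate 1). The day 4 class ranged from 115 to 687, the gap between days from 7501 to 8444 at 24 h and from 7329 to 8195 at 0 h, the 4 h stage difference from 186 to 356, and the 24 h minus 4 h stage difference from 3701 to 4348. Array weights gave 2356 for the day 4 change and 660 for the day 4 class. An adjusted p under 0.01 gave 3422 for the stage difference, 306 for the day 4 change, 104 for the day 4 class, 94 at 4 h and 2578 for 24 h minus 4 h. A 2-fold minimum gave 1794 for the stage difference, 1416 on day 11, 244 on day 4, 1086 and 109 in the day 11 and day 4 classes, 1703 and 1360 for the gap at 24 h and 0 h, 129 at 4 h and 1397 for 24 h minus 4 h. These stricter thresholds call fewer by construction, and the cause of the shift under array weights was not tested. With a replicate block the stage difference was called for 5607. Deviations of same-numbered arrays correlated between -0.12 and 0.16 (median 0.04), over 0.1 in 6 of 30 pairs. Those of other-numbered arrays lay between -0.31 and 0.22 (median -0.01), over 0.1 in 16 of 120 pairs. These ranges overlap and cannot settle whether the numbers carry a pairing. The numbers were not treated as pairs, and the block moved no count by over 1.5 times. Of 143 named genes 132 were called, 115 of them under all 29 refits tried for named genes and 17 not, and 0 reversed. Removal of the dimmest 30% was not among these refits. An adjusted p under 0.01 left 114 of the 132 and a 2-fold minimum 118, and 102 were called under the refits and both thresholds. The mean of all probe sets of a gene moved the value by over 1.5 times without ending the call for, among others, SLC2A5 (2.33), FABP4 (2.78), MMP19 (1.48), CDH1 (1.53), PFKFB3 (0.94), SOCS3 (1.66), MSR1 (1.42), S100A9 (2.86), EGFR (0.48), HPGD (-1.21), NR5A1 (-1.23), CYP19A1 (-0.77), BCAT2 (-2.13) and NAP1L5 (-2.28), beside NKG7, CD40 and NR0B1. Of the 11 not called, 3 were called under some alternative (IFIT5, RPL32 and FGF2). Signals near background limit the folds of dim genes.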

Other observations

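The insulin-like growth factor system, not described above, had 5 positive and 3 negative stage differences among 16 measured genes. The shares of all genes, to set beside this and the next 2 lists, were 14.8% and 15.0%. STC1, stanniocalcin, had 2.79 ± 0.32 (SE; adjusted p = 2.6e-07), and IGFBP1 and IGFBP5, binding proteins of these factors, had 2.78 ± 0.49 (SE; adjusted p = 1.0e-04) and 2.03 ± 0.42 (SE; adjusted p = 6.2e-04), all carried by day 11. The negative calls ranged from 1 (without day 4 24 h replicate 4) to 4 as single arrays were left out. Of 25 complement genes 1 was positive and 5 negative. The positive one was ITGB2, the integrin chain of leukocytes, at 1.73 (adjusted p = 0.0021), and C6, a component of the membrane attack complex, had -1.14 (adjusted p = 0.016), a call lost with the mean of its 2 probe sets. Among 18 acute-phase proteins 3 were positive and 1 negative, the negative one being ORM1, orosomucoid, at -2.31 (adjusted p = 0.016). On day 11 0 of the 18 were called lower and on day 4 0 were called higher, so no single-day call carried the negative value of ORM1.

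Proteasome subunits gave 7 positive and 3 negative of 29, with small sizes: PSMD11 had 0.62 ± 0.11 (SE; adjusted p = 1.6e-04) and PSME1, a subunit of the proteasome activator, -0.59 ± 0.15 (SE; adjusted p = 0.0037). The 7 ranged down to 3 without day 4 0 h replicate 3, and the chaperones' 3 positive calls ranged from 2 to 8. Of 10 fibroblast markers 2 were positive, FAP, a surface protease of activated fibroblasts, at 2.74 ± 0.33 (SE; adjusted p = 4.3e-07) and PDGFRA at 1.40 ± 0.28 (SE; adjusted p = 4.4e-04), which was lost with the mean of its 3 probe sets. Pericyte and smooth muscle markers gave 2 positive and 1 negative of 11, and B and plasma cell markers 1 positive of 7, with 5 of the 7 dim. Over all genes 14.8% were positive and 15.0% negative.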
